A study of Mus musculus with 6 samples.

Results

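The IFIT and OAS genes encode antiviral proteins that macrophages make in response to interferon. The 10 members described here were taken by symbol from a table of 17904 genes: the IFIT genes Ifit1, Ifit2, Ifit3 and Ifit1bl1, and the OAS genes Oas1a, Oas1g, Oas2, Oas3, Oasl1 and Oasl2. All 10 were in the table, and all 10 were among the 11549 genes that reached 1 FPKM in at least 1 library, counted here as measured. FPKM is the number of fragments scaled to transcript length and to the size of the library.

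The study measured RNA in bone marrow-derived macrophages, which are grown from marrow with the growth factor M-CSF, here for 5 days. There were 6 groups of 1 library each. Setd2-KO macrophages were taken at 0 h, 12 h and 24 h with LPS, and WT macrophages at the same times. LPS, a bacterial cell wall lipid that activates macrophages through a Toll-like receptor, was given at 100 ng/ml. The strain was C57BL/6 and the age 8 weeks throughout. Setd2 encodes a histone methyltransferase. The sources used here do not describe the Setd2 allele, any Cre driver, or whether libraries share an animal or culture. Since each group is 1 library, replicate errors cannot be given, and comparisons at a single time are not tested. A member was called when log2(FPKM + 1) differed by at least 1 (2-fold).

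Type I interferon acts through the receptor Ifnar1 and Ifnar2, the kinases Jak1 and Tyk2, and a complex that includes Stat2 and Irf9. That complex binds the interferon-stimulated response element in the promoters of its target genes, and IRF proteins can bind the same element. LPS induces interferon beta in macrophages, so interferon targets are part of the later response to LPS. IFIT proteins bind viral RNA or other IFIT proteins and block translation. OAS proteins are sensors of double-stranded RNA, and the active ones make 2-5A, a short chain of adenylates that acts as a signal for RNA decay.

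The members lie in 3 clusters on GRCm38. Ifit2, Ifit3, Ifit1bl1 and Ifit1 span chr19:34550550-34662981, Oasl2 and Oasl1 span chr5:114896926-114937911, and Oas2, Oas3, Oas1g and Oas1a span chr5:120730333-120907544. Promoter windows from RefSeq (GRCm38.p6), with 250 bases before an annotated start and 50 after it, were found for 9 of the 10 members. Each window was searched on both strands for the core letters of the interferon element, which are GAAA, any 2 bases, and GAAA again (TTTC, any 2 bases and TTTC when read on the other strand). Overlapping matches were counted. Of the 9 members, 6 held a match, beside 4.14% of 9111 measured genes with a window and 3.44% of all 32851 windows. The windows below are printed on the strand of the gene, with matches in capitals. The 5 windows shown are from members of both families that hold a match.
Ifit1, chr19:34640639-34640938, plus strand: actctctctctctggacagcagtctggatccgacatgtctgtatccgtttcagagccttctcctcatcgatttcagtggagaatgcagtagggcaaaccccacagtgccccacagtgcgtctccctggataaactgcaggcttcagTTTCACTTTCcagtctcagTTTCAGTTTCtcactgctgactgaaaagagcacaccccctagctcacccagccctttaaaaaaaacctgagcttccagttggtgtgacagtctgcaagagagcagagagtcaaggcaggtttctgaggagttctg
Ifit3, chr19:34583279-34583578, plus strand: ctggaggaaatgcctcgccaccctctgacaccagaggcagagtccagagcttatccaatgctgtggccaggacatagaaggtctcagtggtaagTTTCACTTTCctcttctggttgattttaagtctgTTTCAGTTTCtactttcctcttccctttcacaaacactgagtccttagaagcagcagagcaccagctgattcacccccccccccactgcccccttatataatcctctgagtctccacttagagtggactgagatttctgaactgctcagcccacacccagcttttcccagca
Oas1a, chr5:120907476-120907775, minus strand: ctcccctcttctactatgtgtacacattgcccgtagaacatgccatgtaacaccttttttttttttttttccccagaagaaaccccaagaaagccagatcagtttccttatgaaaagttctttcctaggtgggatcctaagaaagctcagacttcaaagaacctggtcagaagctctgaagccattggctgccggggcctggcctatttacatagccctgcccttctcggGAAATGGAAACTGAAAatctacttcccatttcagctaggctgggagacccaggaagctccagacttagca
Oas1g, chr5:120887564-120887863, minus strand: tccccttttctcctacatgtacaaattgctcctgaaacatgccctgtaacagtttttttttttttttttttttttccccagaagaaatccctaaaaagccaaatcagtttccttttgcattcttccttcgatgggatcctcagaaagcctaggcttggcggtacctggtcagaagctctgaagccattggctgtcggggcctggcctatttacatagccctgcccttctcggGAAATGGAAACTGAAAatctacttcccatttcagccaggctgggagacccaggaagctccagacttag
Oas3, chr5:120777610-120777909, minus strand: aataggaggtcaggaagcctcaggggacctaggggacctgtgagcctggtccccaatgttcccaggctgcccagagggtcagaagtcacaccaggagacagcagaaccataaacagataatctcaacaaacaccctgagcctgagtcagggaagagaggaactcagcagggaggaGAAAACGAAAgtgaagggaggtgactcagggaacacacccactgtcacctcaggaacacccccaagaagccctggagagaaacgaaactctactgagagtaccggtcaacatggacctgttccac

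The middle of the matches lay 99 and 80 bases before the start of Ifit1, and 151 and 117 bases before that of Ifit3, all on the strand opposite to the gene. In Oas1a the 2 matches overlapped, centred 15 and 9 bases before the start, and in Oas1g 13 and 7 bases before it, on the strand of the gene. Oas3 had 1 match, 70 bases before its start. Ifit1bl1 had 1 match in each of its 2 windows, 18 and 99 bases before the start and on the strand opposite to the gene. The positions in the families overlapped. The windows of Ifit2, Oasl1 and Oasl2 held no match to these letters. A match is a run of letters and not a measured binding site. Among the listed other interferon-stimulated genes, 9 of 19 with a window held one.

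**Figure D1:**
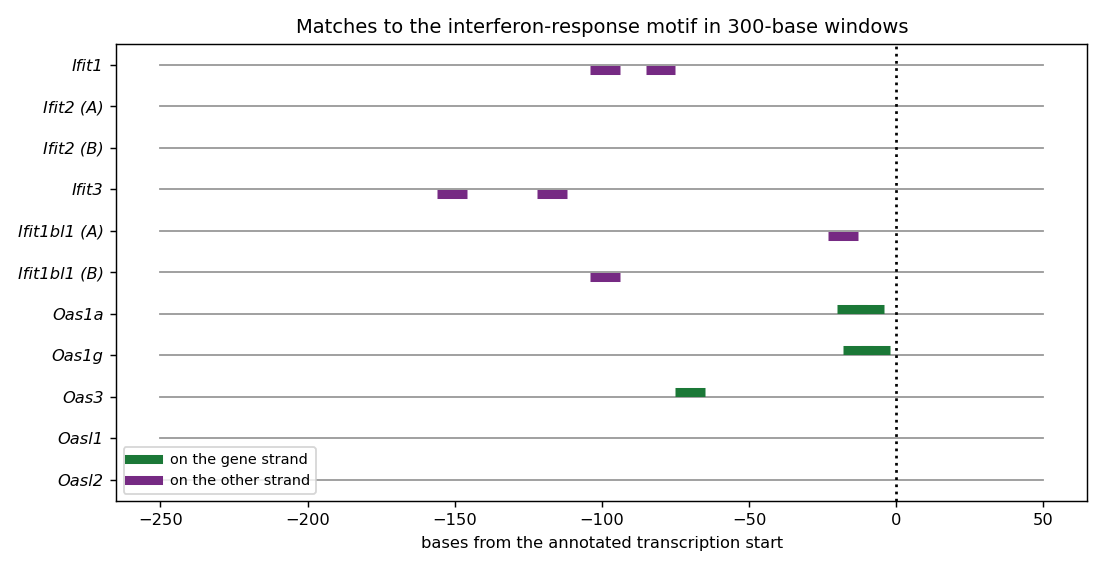
Matches to the core letters of the interferon element in the promoter windows of 9 members, by distance in bases from the annotated start (dotted line). Green marks are on the strand of the gene and purple marks on the other strand. A and B are the 2 windows of a gene with 2 annotated starts, by position on the chromosome, and each mark of Oas1a and Oas1g joins 2 overlapping matches.

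Libraries were of like depth and the cells carried macrophage markers. From the spacing of low FPKM values, and assuming reads of 50 bases, each library held an estimated 21700000 to 22600000 mapped reads. The 9 macrophage markers summed to 2786 to 4052 FPKM in the KO libraries and 2829 to 4916 in WT. Of the 9, 2 were called lower in KO at 24 h, beside 1.93% of measured genes, and 0 at 0 h or 12 h. The smaller of these 2 differences was -0.82, short of the rule, with the trend over transcript length (described below) removed. Plasmacytoid dendritic cells are known for making interferon. Their 6 listed markers summed to 10.1 to 13.1 FPKM in KO and 11.2 to 14.4 in WT, mostly Tcf4, and 2 were measured. Tcf4 was at 7.77 to 8.36 FPKM in KO and 7.64 to 9.59 in WT. Cox6a2, the other measured one, was at 0.94 to 3.41 in KO and 2.04 to 3.43 in WT. Siglech was at no more than 0.71, and Klk1 was listed at 0 in all KO libraries. Neutrophil markers (8 of 8 measured) summed to 43.7 to 68.5 FPKM in KO and 82.7 to 88.8 in WT. At 12 h 1 of 8 was called lower in KO, S100a8 (-1.16), beside 0.727% of measured genes, and 0 higher. At 0 h and 24 h 0 were called. Ly6g was listed at 0 in KO at 0 h and Elane in KO at 24 h, each against 0.1 FPKM in WT. Cxcr2 was higher in KO, by 0.57 at 12 h and 0.73 at 24 h. The median differences of these markers were -0.46, -0.43 and -0.18 at 0, 12 and 24 h. With the trend over transcript length removed they were -0.11, -0.47 and -0.29. The part of these marker differences in the results was not tested. Conventional dendritic cell markers summed to 6.49 to 41.7 FPKM in KO and 4.62 to 40.5 in WT, mostly Ccr7, and stromal and endothelial markers to 7.99 to 13.1 and 7.30 to 12.4. Markers of B cells, T and NK cells, erythroid cells and mast cells or basophils each summed to at most 2.19 in KO and 3.77 in WT. Setd2 itself was at 9.96, 9.16 and 5.11 FPKM in the libraries labelled KO at 0, 12 and 24 h, against 7.83, 8.68 and 7.51 in WT. That level does not separate the genotypes, and a gene-level value keeps reads of exons outside a deletion, so each direction below rests on the labels.

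Before LPS was added, every member was higher in the library labelled KO than in that labelled WT. The FPKM ratios ran from 3.33 (Oas1a) to 12.6 (Ifit3). All 10 members were called higher, beside 2.96% of 11547 measured genes, and 0 lower, beside 1.26%. Their median difference was 2.43 on the log2(FPKM + 1) scale, against 0.02 over all measured genes. In bulk RNA, a larger number of cells that express a gene and more RNA per cell cannot be told apart.

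Ifit3, which joins Ifit1 and stabilises it on RNA in human cells, had 42.1 FPKM in KO at 0 h and 3.34 in WT, a log2 difference of 3.31. It ranked 3rd among the measured genes for a higher level in KO. Ifit1, which binds the 5′ end of RNA that lacks the cap methylation of the host, had 14.1 FPKM in KO and 1.33 in WT (2.70). Ifit2, an RNA-binding relative, had 21.8 FPKM in KO and 3.09 in WT (2.48).

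Ifit1bl1, a mouse gene related to Ifit1, was the least expressed member at 0 h in both genotypes. It had 1.54 FPKM in KO at 0 h and 0.22 in WT, from about 73 and 10 reads by the depth estimate. Exact 95% Poisson intervals, for counting error only, were 57.2 to 91.8 reads in KO and 4.80 to 18.4 in WT. Its FPKM ratio was 7.0, but its log2(FPKM + 1) difference was 1.06, since adding 1 understates the change of a low gene. The difference was 2.36 with 0.1 added. It was short of a call with 5 added (0.33), with median-of-ratios scaling (0.95) and with trimmed-mean scaling (0.98).

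Oas1a and Oas1g encode the small synthetases of the family. Oas1a had 94.5 FPKM in KO at 0 h and 28.4 in WT (1.70), the highest member level in both. Oas1g had 29.7 FPKM in KO and 7.70 in WT (1.82). Oas2 and Oas3 encode synthetases with several OAS units in 1 chain, and Oas3 favours long double-stranded RNA. Oas2 had 40.5 FPKM in KO and 7.04 in WT (2.37). Oas3 had 86.9 FPKM in KO and 15.9 in WT (2.38).

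The OAS-like genes Oasl1 and Oasl2 carry ubiquitin-like domains. In the mouse Oasl2 keeps synthetase activity, while Oasl1 lacks it and is known to hold back translation of Irf7. Oasl2 had 88.0 FPKM in KO at 0 h and 8.54 in WT (3.22). Oasl1 had 26.2 FPKM in KO and 2.74 in WT (2.86). These were the 4th and 7th highest differences of the measured genes.

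**Figure D2:**
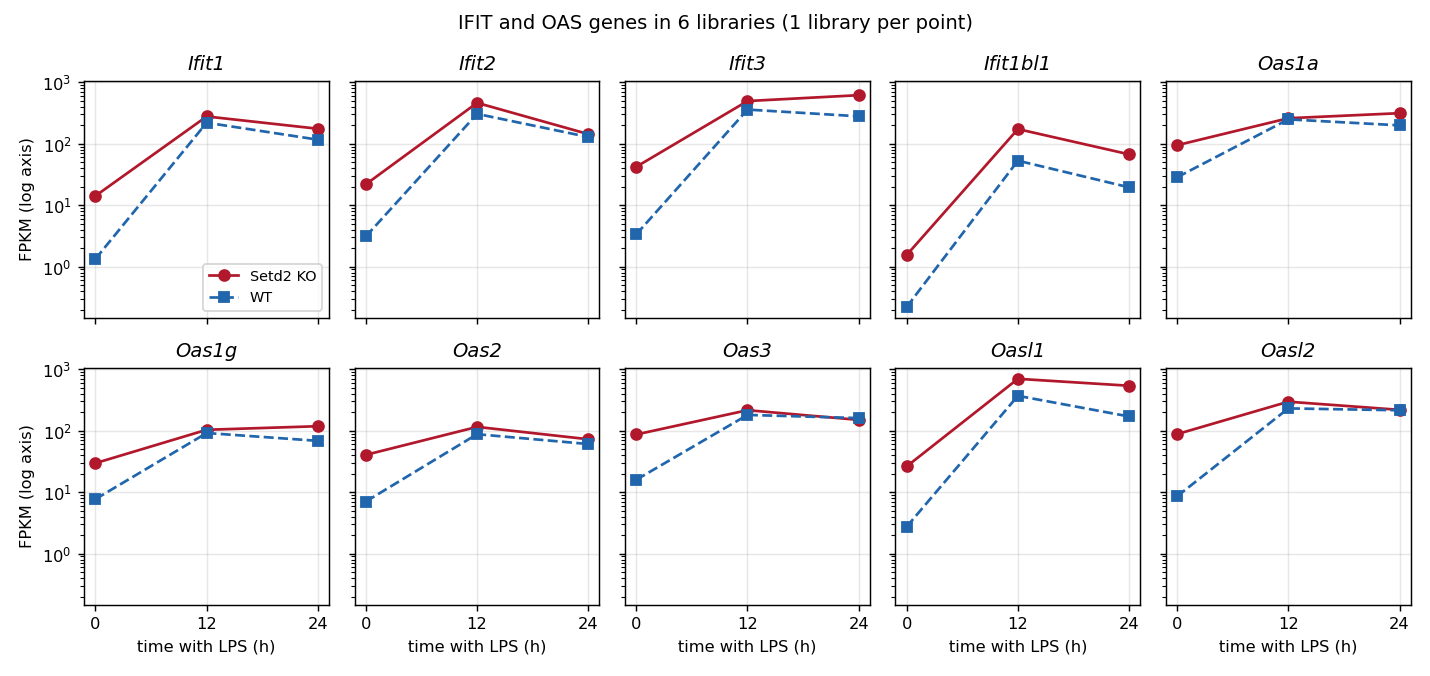
FPKM of each member (log axis) against time with LPS in the KO libraries (circles, solid line) and the WT libraries (squares, dashed line), 1 library a point. The lines are far apart at 0 h for every member and closer at 12 h, and Ifit1bl1 and Oasl1 stay apart at 24 h.

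All 10 members rose by 12 h with LPS in both genotypes. In KO, all 10 were called higher at 12 h than at 0 h, beside 8.63% of measured genes (17.5% were lower), with a median log2 difference of 2.65 against -0.36 over all of them. All 10 were called in WT as well, beside 9.64% (17.4% lower), with a median of 5.04 against -0.28 over all. FPKM ratios of 12 h to 0 h were 11.8 to 112 for the 4 IFIT genes in KO and 98.99 to 240.6 in WT. For the 6 OAS genes they were 2.49 to 26.7 in KO and 8.77 to 135 in WT, with Oasl1 the highest in both. Scaling by median of ratios would add 0.35 to the median 12 h difference of all measured genes in KO and 0.28 in WT, and calls all 10 in both.

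Set against the level that WT reached at 12 h, the members ranged from 2.91% to 48.0% at 0 h in KO. Oas3 stood at 48.0% of the WT 12 h level before any LPS, Oas2 at 46.1%, Oasl2 at 38.1%, Oas1a at 37.9% and Oas1g at 32.3%. These 5 are all the OAS members except Oasl1. Ifit3 stood at 11.7%, Ifit2 at 7.13%, Oasl1 at 7.09%, Ifit1 at 6.42% and Ifit1bl1 at 2.91%. In WT at 0 h the same 5 OAS genes were at 3.70% to 11.4% of the WT 12 h level, and the IFIT genes and Oasl1 at 0.42% to 1.01%. This grouping was made from the percentages themselves, and both genotypes are set against the same WT library, so the order in WT is no independent repeat.

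**Figure D3:**
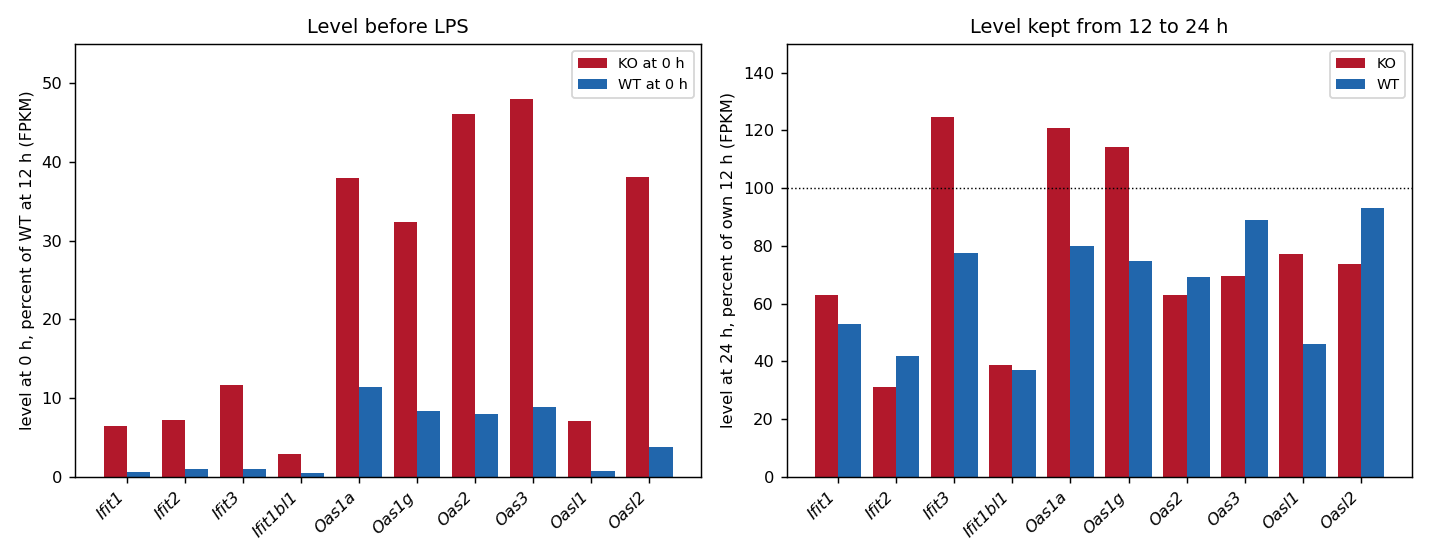
Left, the 0 h level of each member in KO (red) and WT (blue) as a percentage of its WT level at 12 h. Right, the 24 h level in KO and WT as a percentage of the level at 12 h in the same genotype (dotted line, 100%). Bars on the left pass 30% for Oas1a, Oas1g, Oas2, Oas3 and Oasl2 in KO, and bars on the right pass 100% for Ifit3, Oas1a and Oas1g in KO.

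After 12 h with LPS the libraries were close for most members. All 10 were above WT in the library labelled KO, but only Ifit1bl1 was called, 1 of 10 beside 1.32% of measured genes, and 0 were called lower, beside 0.727%. The median log2 difference was 0.38, against -0.06 over all measured genes. Ifit1bl1 had 173 FPKM in KO and 52.9 in WT (1.69), and ranked 24th of the measured genes. Oasl1 had 699.8 FPKM in KO and 370.0 in WT, a difference of 0.92, which median-of-ratios scaling moved to 1.0, past the rule.

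The other 8 members differed by 0.06 to 0.59 at 12 h. Ifit2 was at 462 FPKM in KO and 306 in WT (0.59), Ifit3 at 495 and 359 (0.46), and Ifit1 at 278 and 219.8 (0.34). Among OAS genes, Oas1a was at 259.8 FPKM in KO and 249 in WT (0.06), the closest pair of all. Oas1g was at 104 and 91.8 (0.17), Oas2 at 115 and 87.9 (0.39), Oas3 at 216 and 181 (0.25), and Oasl2 at 297 and 231 (0.36). Oasl1 was the most abundant member at this time in both genotypes.

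By 24 h the genotypes had parted again for some members. The library labelled KO had 3 of 10 called higher, beside 2.22% of measured genes, and 0 called lower, beside 1.93%. The median log2 difference was 0.62, against -0.12 over all measured genes, which median-of-ratios scaling moved to 0.00. Ifit1bl1 had 67.1 FPKM in KO and 19.5 in WT (1.73), Oasl1 had 540.0 and 171 (1.66), and Ifit3 had 616 and 279 (1.14). Ifit1bl1 and Oasl1 thus stood at more than 3 times their WT level at 24 h, with FPKM ratios of 3.44 and 3.16.

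The remaining members were not called at 24 h. Oas1g had 118 FPKM in KO and 68.5 in WT (0.78), Oas1a 314 and 199 (0.66), and Ifit1 175 and 116 (0.59). Oas2 had 72.7 FPKM in KO and 60.7 in WT (0.26), and Ifit2 143 and 128 (0.16). Oasl2 had 219 and 215 (0.02), and Oas3 had 150.1 and 161 (-0.10). The Oas3 difference turned to 0.14 without the length trend, to 0.06 with median-of-ratios scaling and to 0.01 with trimmed-mean scaling, so it has no settled direction.

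**Figure D4:**
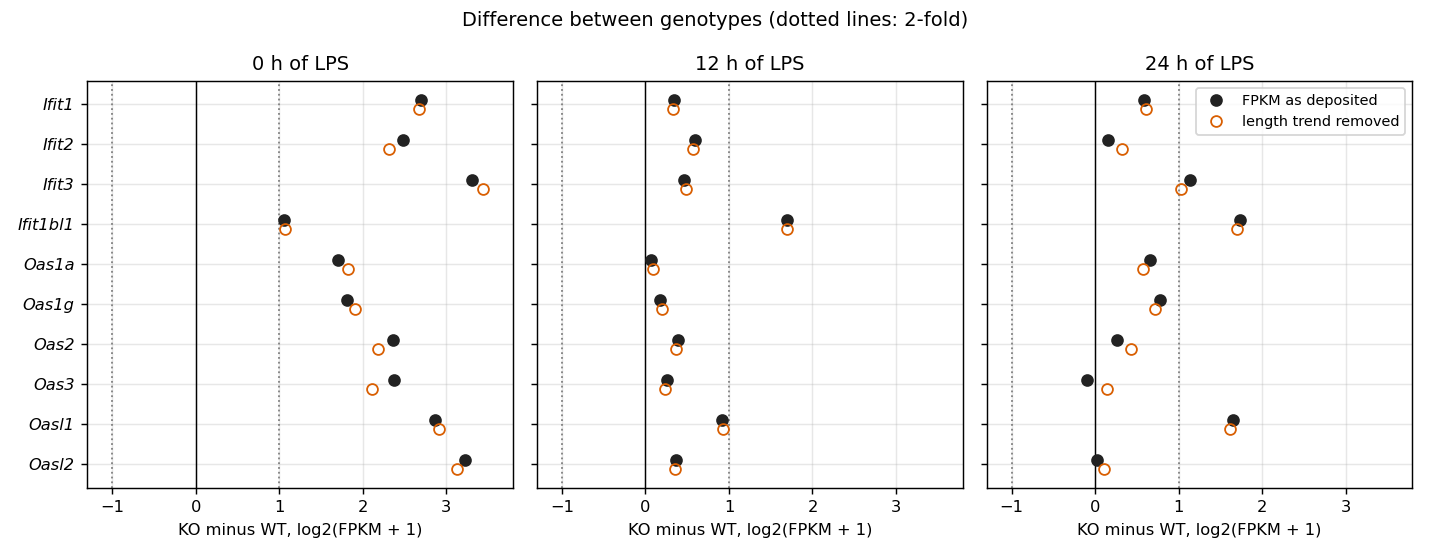
KO minus WT difference in log2(FPKM + 1) for each member at 0, 12 and 24 h of LPS. Filled points are FPKM as deposited and open points have the trend over transcript length removed; dotted lines mark 2-fold. The filled points past 2-fold number 10 at 0 h, 1 at 12 h (Ifit1bl1) and 3 at 24 h (Ifit3, Ifit1bl1 and Oasl1).

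From 12 h to 24 h some members of each family fell and others stayed near their 12 h level or above it. In KO, Ifit2 (-1.68) and Ifit1bl1 (-1.35) were called lower at 24 h than at 12 h, 2 of 10 beside 7.67% of measured genes (4.78% higher). In WT 3 of 10 were called lower, beside 3.79% (1.82% higher): Ifit1bl1 (-1.40), Ifit2 (-1.25) and Oasl1 (-1.11). Every member was lower at 24 h in WT in FPKM as deposited. Oasl1 kept 77.2% of its 12 h level in KO and 46.1% in WT. Ifit3 was at 124.6% of its 12 h level in KO and 77.7% in WT, Oas1a at 120.8% and 79.9%, and Oas1g at 114% and 74.6%. Without the length trend, the log2 changes of these 3 genes in KO shrank to 0.09, 0.10 and 0.05, against -0.45, -0.39 and -0.48 in WT. Ifit2 kept less in KO (31.0%) than in WT (42.0%), and so did Oas3 (69.5% and 88.9%), Oasl2 (73.6% and 93.2%) and Oas2 (63.0% and 69.1%). Without the length trend the order turned for Oas2, with log2 changes of -0.33 in KO and -0.39 in WT, and the change of Oas3 was -0.08 in KO and 0.00 in WT. With 1 library a point, none of these differences has a test.

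At 24 h 8 of 10 members were still called above 0 h in KO, beside 7.55% of measured genes (21.6% lower). The exceptions were Oas2 (0.83) and Oas3 (0.78), and both were called with the length trend removed (1.12 and 1.17) and with either scaling. In WT all 10 were called, beside 7.65% (13.9% lower). The log2 response to LPS was smaller in KO for 9 of 10 members at both times. At 12 h the difference of responses was called lower in KO for these 9, beside 3.14% of measured genes (1.65% higher), with a range from -1.64 to -2.86. At 24 h it was called lower for the same 9, beside 8.63% (4.04% higher), from -1.03 to -3.20, with a call lost for Oas1a (-0.88), Oas1g (-0.85) and Oasl1 (-0.99) under median-of-ratios scaling, and for the same 3 with 5 added. These values share the 0 h libraries with the genotype difference at 0 h and are not independent of it. Ifit1bl1 was the exception, at 0.63 and 0.68. With 0.1 added the values were -0.65 and -0.58, and with 5 added 1.29 and 1.23, so its direction depends on how its 0 h reads are weighted.

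Summed over the family, the 4 IFIT genes gave 79.5, 1408 and 1002 FPKM in KO at 0, 12 and 24 h, against 7.98, 938 and 543 in WT. The 6 OAS genes gave 366, 1692 and 1414 FPKM in KO, against 70.3, 1211 and 875 in WT. Together the 10 genes took 0.0966%, 0.675% and 0.415% of the FPKM total in KO, and 0.0147%, 0.450% and 0.255% in WT.

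Within a family the mix of members differed between libraries. Oasl1 supplied 7.18%, 41.4% and 38.2% of the OAS sum in KO at 0, 12 and 24 h, against 3.90%, 30.6% and 19.5% in WT. Oas1a supplied 25.8% of it in KO at 0 h and 40.4% in WT. Ifit3 made up 52.9%, 35.1% and 61.5% of the IFIT sum in KO, against 41.9%, 38.3% and 51.4% in WT. At 24 h it was the most abundant member in both genotypes.

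Some members have near copies, so the split of reads among them is uncertain. Of the 50-base windows of the Ifit3 transcript (GENCODE M21), 51.2% also occur in Ifit3b, and 57.6% of those of Oas1a occur in other genes, chiefly Oas1g. For Oas1g the share is 54.7%. Ifit1 (7.13%) and Ifit1bl1 (6.60%) share less, Oas3 0.47%, and Ifit2, Oas2, Oasl1 and Oasl2 share none. Summing removes the question of the split. Ifit3 and Ifit3b together had 49.1, 584 and 721 FPKM in KO, against 3.96, 410.2 and 319 in WT, with log2 differences of 3.34, 0.51 and 1.18. Oas1a and Oas1g together had 124, 363 and 432 FPKM in KO, against 36.1, 341 and 267 in WT, with differences of 1.75, 0.09 and 0.69. The calls were those of the single genes, and both sums were higher at 24 h than at 12 h in KO and lower in WT. Whether reads were counted by strand is not given in the sources used here.

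Other relatives were read from a list of 8, of which 7 were in the table and 4 measured. Ifit3b had 7.09 FPKM in KO at 0 h and 0.62 in WT, and was called higher at 0 h (2.32) and 24 h (1.38). Oas1b, annotated in RefSeq as a transcribed pseudogene, was at 6.13 and 2.79 FPKM at 0 h (0.91), short of a call. Oas1c differed by 0.21 and Ifit1bl2 by 0.16. Oas1d, Oas1f and Oas1h stayed under 1 FPKM in all libraries.

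The KO minus WT difference also varied with transcript length over all genes. Over the 5586 measured genes whose mean over libraries reached 10 FPKM, the Spearman rho between length and the log2 difference was 0.61 at 0 h, 0.16 at 12 h and -0.41 at 24 h, as a description of 1 pair of libraries each. The transcripts of the members run from 1745 bases (Ifit3) to 4720 bases (Oas3). With the trend removed, 10 of 10 members were called at 0 h with differences of 1.07 to 3.44, 1 at 12 h and 3 at 24 h.

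One fit joined the 3 times, with the spread of the KO minus WT difference over times as its error, so that it measures steadiness over time and not replicate error. In limma's additive fit of genotype and time, 0 of 10 members passed an adjusted p of 0.05, beside 0% of 11549 genes higher and 0.0173% lower. Unadjusted, 8 of 10 members and 1007 of all genes had a p under 0.05. Ifit1bl1 was nearest, higher in 3 of 3 pairs by a mean of 1.49 ± 0.19 (SE), with limma's adjusted p at 0.156. Without the 0 h libraries limma's adjusted p for Ifit1bl1 was 0.0183, without those of 24 h it was 0.0289, and over all alternatives it ran up to 0.553. More genes passed in these 2 fits in general. Of 11549 genes, 43 passed as higher and 14 as lower without 0 h, and 33 and 12 without 24 h. In the main fit these numbers were 0 and 2. Oasl1 was higher in 3 of 3 pairs, by 1.81 ± 0.34, with limma's adjusted p at 0.205 (0.065 to 0.517 over the alternatives). The other 8 members were also higher in 3 of 3 pairs, except Oas3, which was not at 24 h. Their values of limma's adjusted p ran from 0.464 to 0.653.

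Genes of interferon signalling, from ligands to transcription factors and feedback inhibitors, were read as a list of 15. Of these, 13 were in the table and measured. At 0 h, 5 of 13 were called higher in KO, beside 2.96% of measured genes, and 0 lower, beside 1.26%. Their median difference was 0.47, or 0.28 with the length trend removed. Called genes included the transcription factors Irf7 (2.97) and Stat2 (1.84), and the feedback inhibitors Usp18 (2.86) and Socs1 (1.53). Receptor and kinase genes were not called: Ifnar1 differed by 0.25, Ifnar2 by -0.18, Jak1 by 0.47 and Tyk2 by 0.30. Irf9 was at 31.1 FPKM in KO and 16.3 in WT (0.89). Ifnb1, the gene of interferon beta itself, was near the limit of detection, at 0.19, 1.52 and 1.85 FPKM in KO at 0, 12 and 24 h, against 0.70 and 1.19 in WT at 12 and 24 h, and was listed at 0 in WT at 0 h. Ifna2 and Ifna4, the other listed ligand genes, had no row under these symbols and so no value. In the 12 h comparison 0 of 13 were called, beside 1.32% of measured genes higher and 0.727% lower. In the 24 h comparison 1 was called, Socs1 (1.38), beside 2.22% of measured genes called higher.

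Genes that act on or after 2-5A were read as well, and those described here were not called between genotypes at 0, 12 or 24 h. Abce1, an ATPase that recycles ribosomes, had 38.4, 12.3 and 11.3 FPKM in KO, against 26.0, 18.3 and 17.3 in WT. Its log2 differences were 0.54, -0.53 and -0.58. Pde12 and Akap7, which break down 2-5A, differed by 0.34 or less in size.

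Genes of viral RNA sensing, a list that is not limited to the sensors themselves, mostly followed the members at 0 h. Of 8 listed genes, 6 were called higher in KO at 0 h, beside 2.96% of measured genes, and 0 lower, with a median of 1.56. They were Zbp1 (2.79), Ddx58, which encodes RIG-I (2.28), Dhx58 (1.83), Ifih1, which encodes MDA5 (1.63), Eif2ak2, which encodes the kinase PKR (1.5), and the editing enzyme gene Adar (1.17). The Adar difference was 0.81 once the length trend was taken out, below the rule. Tlr3 (0.68) and Mavs (0.09) were not called at 0 h. Tlr3 was the 1 of 8 called at 12 h (1.05), beside 1.32% of measured genes called higher. At 24 h 0 of 8 were called, beside 2.22%.

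The other interferon-stimulated genes, a list of 24, had a lower median than the members at 0 h, 1.54 against 2.43. Of these, 19 of 24 were called higher in KO at 0 h, beside 2.96% of measured genes, and 0 lower. They were led by Rsad2 (2.82), Rtp4 (2.75) and Cmpk2 (2.71). At 12 h 1 of 24 was called, Gbp3 (1.08), beside 1.32% of measured genes called higher. Rsad2 (0.96) and Cmpk2 (0.92) were next, and the median was 0.31. At 24 h 2 were called, Isg20 (1.19) and Isg15 (1.09), beside 2.22% of measured genes called higher. Neither of them was past the rule when the length trend was taken out (0.96 and 0.85). Ifi35 followed at 0.91, and the median was 0.56. The difference between the members and this list was not tested.

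**Figure D5:**
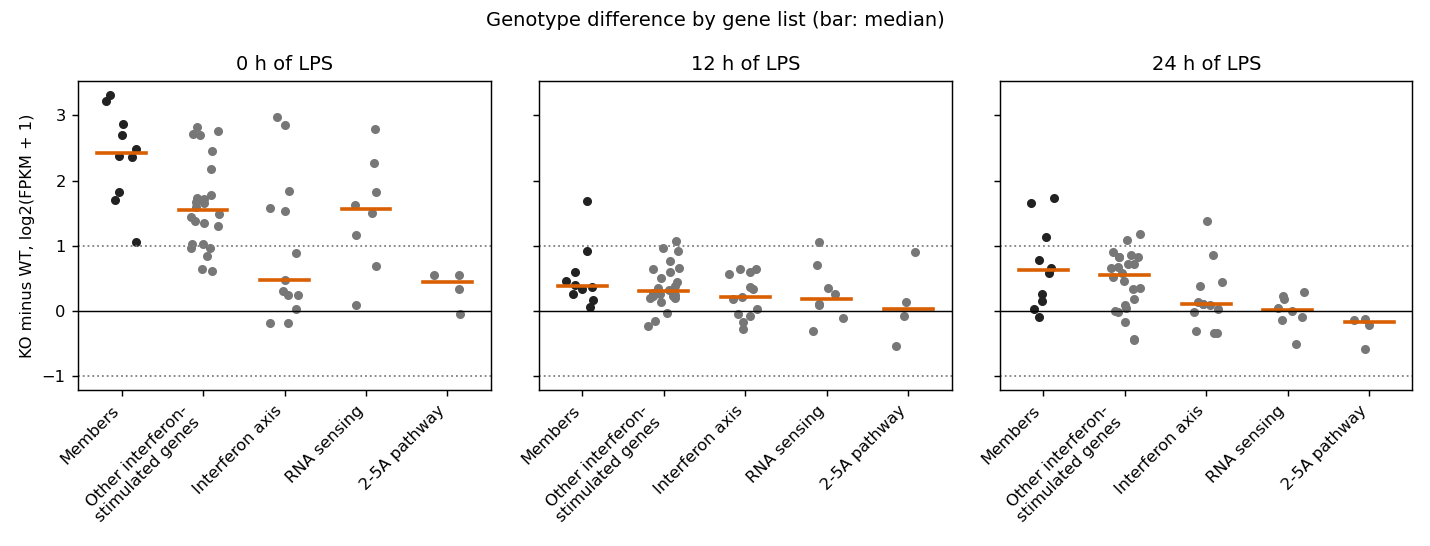
KO minus WT difference in log2(FPKM + 1) for the 10 members (black) and the measured genes of 4 other lists (grey) at 0, 12 and 24 h of LPS. Orange bars are medians and dotted lines mark 2-fold. Medians at 0 h were 2.43 for the members, 1.54 for other interferon-stimulated genes, 1.56 for RNA sensors and 0.44 for the 2-5A pathway.

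The members' pattern over the 6 libraries was shared closely by single genes elsewhere. Among 8836 other genes that reached 5 FPKM, those most like the mean profile of the members by Pearson's r over 6 libraries were Ifi204 (0.999), Mnda (0.998), Usp18 (0.997), Ube2l6 (0.997), Pyhin1 (0.997) and Pydc3 (0.996). Ifi204 had 78.5, 415 and 298 FPKM in KO, against 18.9, 340.3 and 225 in WT. The members themselves had an r of 0.942 (Ifit1bl1) to 0.996 (Ifit1) with the mean of the other 9. These points share libraries and the rise with LPS, so r is a description.

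Genes beside the clusters, with family relatives left out, did not move with them as a group. The listed relatives described above were left out beforehand, so these neighbours are not always the nearest measured genes. Of the 18 nearest measured genes outside both families, 3 on each side of each cluster, 1 was called at 0 h. The farthest, Htr7, lay 1295434 bases from its cluster. Of all measured genes, 2.96% were called higher and 1.26% lower at that time. The median difference of the neighbours was -0.01. The called neighbour was Ch25h, which makes 25-hydroxycholesterol and lies 75402 bases before Ifit2, with 2.84 FPKM in KO and 0.31 in WT at 0 h (1.55). It was also the 1 called at 24 h (2.31), beside 2.22% of measured genes higher and 1.93% lower. Lipa, the gene of lysosomal acid lipase, 23076 bases before Ifit2, was at 593 FPKM in KO and 545 in WT (0.12).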

How the data were processed

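The authors deposited 1 table of FPKM per gene, with 2 decimals, per the file headers. Bowtie2, RSEM and GRCm38 are named in the submitters' processing notes, without versions or settings; per the labels, TRIzol was used to extract total RNA and a BGISEQ-500 to sequence it. Of 17905 rows, 1 names no gene and was left out; 25 symbols turned into dates were restored from gene IDs, and 2 cells that are not numbers (Cd36 and Cers5, KO at 0 h) were read as missing. Differences are of log2(FPKM + 1). The members and lists were chosen with earlier results of these data known. All members are named; of the lists, genes called in KO against WT (apart from results not reported here), the interferon ligand, and the 3 largest differences of the other interferon-stimulated genes are named, with receptors, kinases, 2-5A genes, relatives and other values also given, chosen after their values were seen. The length trend was removed by lowess (span 0.3, statsmodels 0.14.6); 99.6% of measured genes had a length. The additive fit used limma 3.58.1 (robust, intensity trend, Benjamini-Hochberg over 11549 genes). Fold rule, fit and length removal were tested on simulated data. Intervals cover counting error only.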

Additional observations from a re-analysis of the deposited data

Results flagged for a closer look

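From 12 h to 24 h of LPS, 3 members moved in opposite directions in the genotypes, each judged from 1 library a point, and the difference was not tested. Ifit3 moved by 0.32 on the log2(FPKM + 1) scale in KO and by -0.36 in WT, Oas1a by 0.27 and -0.32, and Oas1g by 0.19 and -0.42. All 6 values are short of 2-fold. Without the length trend the values were 0.09 and -0.45 for Ifit3, 0.10 and -0.39 for Oas1a, and 0.05 and -0.48 for Oas1g, so the signs held and the size in KO shrank. Oas3 was higher in KO than in WT by 2.38 at 0 h and by 0.25 at 12 h, and differed by -0.10 at 24 h; this difference between times was not tested either, and the last value changes sign with either scaling and without the length trend.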

How the results depend on the processing

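Of 1123 values of single members under the alternatives, 1070 kept their direction and their side of the rule, 0 called values changed sign, 24 lost a call, 23 gained one, and 6 uncalled values changed sign. The 1070 include values that could not move, since another minimum FPKM leaves every difference between libraries as it was. A fold rule leaves every sign as it was. Counts that moved by over 1.5 times were few. At 12 h, KO against WT called 2 members with median-of-ratios scaling and 3 with a 1.5-fold rule, in place of 1; at 24 h a 1.5-fold rule called 6, in place of 3. From 12 to 24 h, a 1.5-fold rule called 4 members in KO in place of 2, and a 3-fold rule 1 in KO and 0 in WT, in place of 3 in WT. In the additive fit, leaving out the libraries of 0 h or of 24 h passed 1 member (Ifit1bl1) in place of 0. Over all genes, 43 passed as higher and 14 as lower without 0 h, and 33 and 12 without 24 h, in place of 0 and 2. The fold rules change counts by construction; for the others the cause was not tested. Summing near copies was chosen after seeing the data. No paired analysis was possible because each group has 1 library, so no replicate numbers could be matched; the additive fit matched KO and WT by time only. The main limits are 1 library a group, a Setd2 level that does not check the labels, and about 10 reads for Ifit1bl1 in WT at 0 h.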
